A study of Mus musculus with 6 samples.

Results

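Genes of MHC class I antigen presentation and the immunoproteasome were followed in mouse gastrocnemius muscle. The 10 genes were chosen by symbol, as the rows named H2-K1, H2-D1, B2m, Tap1, Tap2, Tapbp, Nlrc5, Psmb8, Psmb9 and Psmb10 among 49315 rows of the count table. All 10 passed the filter on low counts, which kept 15847 genes. Muscles of male C57BL6J mice received an adeno-associated virus (AAV9) by injection when the animals were 5 months old, and were collected 5 months later. The AAV9-HSA-GFP group received a virus coding for a green fluorescent protein, and the AAV9-HSA-CAAHR group received one coding for a constitutively active mouse aryl hydrocarbon receptor (AHR) that lacks the domain for binding ligands. In each group 3 libraries were sequenced, CAAHR replicates 31, 34 and 36 and GFP replicates 42, 43 and 46. The human skeletal actin promoter (HSA) drives both transgenes in muscle fibres, so other cells of the muscle were not the intended site of expression. Every library came from virus-injected muscle, and uninjected muscle was not analysed here. A gene is said below to have fallen or risen where its level in CAAHR was lower or higher than in GFP libraries, and which of the groups had moved away from uninjected muscle cannot be told from these libraries. The labels do not say that each library came from a separate mouse, so p-values measure the spread between these libraries, which may be partly technical.

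MHC class I molecules display short peptides from the inside of a cell to CD8+ T cells, and nearly all nucleated cells carry them. The peptides are cut by the proteasome, pumped into the endoplasmic reticulum by the transporter TAP, and loaded onto a heavy chain paired with beta-2-microglobulin. Interferon-gamma raises the whole set of genes and exchanges the 3 catalytic subunits of the standard proteasome for those of the immunoproteasome. Resting muscle fibres are known for low class I expression, which rises in inflamed muscle.

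The transgene was checked first. Ahr, which codes for the receptor, was at 9.96, 22.8 and 17.3 CPM (counts relative to the library total, with TMM scaling) in CAAHR replicates 31, 34 and 36, and at 2.46, 2.55 and 1.87 CPM in GFP replicates 42, 43 and 46. The groups did not overlap, and the log2 fold change of CAAHR over GFP was 2.87 ± 0.31 (SE, edgeR quasi-likelihood test, adjusted p = 0.00229 by the Benjamini-Hochberg method over all tested genes). Cyp1a1, the classical AHR target, rose by a log2 fold change of 7.77 (edgeR, adjusted p = 1.11e-07). Library totals ran from 43432994 to 58825752 counts. The muscle label matched the fibre markers, with Acta1 at 21651 to 21995 CPM in CAAHR and 35124 to 37653 CPM in GFP libraries. Of the 8 fibre markers 3 (Acta1, Ckm and Tnnt3) were lower in CAAHR, against 4.57% of all tested genes, and 0 were higher. The slow myosin gene Myh7, at a mean of 614 CPM in CAAHR and 56.5 CPM in GFP libraries, had a log2 fold change of 3.44 ± 0.78 that did not pass (SE, edgeR, adjusted p = 0.0691), and Myh2 and Myh1 were at 1.38 ± 0.81 and 0.997 ± 0.647 with overlapping groups.

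The sequences before the RefSeq starts of the class I chains are shown because 3 of the 10 genes, H2-K1, H2-D1 and B2m, carry a match there to an NF-kB-like site, the kind of site through which NF-kB factors act on class I promoters. The motif searched was GGG, any 2 bases, TT, any base and CC. They are from RefSeq (GRCm38.p6), which held the promoters of 8 of the 10 genes, and they run 5′ to 3′ on the strand of the gene. Capitals mark the NF-kB-like match and, in B2m, also a match to the core of the interferon-stimulated response element (GAAA, any 2 bases and GAAA). H2-D1 is shown over 30 bases around its match, at chr17:35262913-35262942 on the + strand. GENCODE, which gives the gene positions used below, starts H2-D1 farther upstream than RefSeq, so this stretch lies inside the gene as GENCODE draws it. H2-K1 is at chr17:34000348-34000597 on the - strand, and B2m at chr2:122147437-122147685 on the + strand.
H2-K1: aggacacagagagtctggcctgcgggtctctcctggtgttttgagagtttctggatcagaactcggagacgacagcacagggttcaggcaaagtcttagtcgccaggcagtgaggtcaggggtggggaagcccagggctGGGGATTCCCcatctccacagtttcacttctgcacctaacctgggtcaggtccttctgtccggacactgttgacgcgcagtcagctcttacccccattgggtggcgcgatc
H2-D1: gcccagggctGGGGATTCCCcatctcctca
B2m: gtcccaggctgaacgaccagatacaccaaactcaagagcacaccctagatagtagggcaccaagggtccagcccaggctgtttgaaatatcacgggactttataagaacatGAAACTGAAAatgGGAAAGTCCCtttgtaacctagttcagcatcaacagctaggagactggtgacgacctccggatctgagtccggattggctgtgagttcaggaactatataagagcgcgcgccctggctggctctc

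In the 250 bases before the RefSeq start, read on both strands, the NF-kB-like site matched 3 of the 8 promoters and 4.02% of 27025 promoters of mouse genes. The match in H2-K1 ran from 111 to 102 bases before the start, in H2-D1 from 171 to 162 and in B2m from 126 to 117. H2-K1 and H2-D1, which belong to the same gene family, shared an unbroken run of 47 bases that holds the match, and 161 of 177 aligned positions (91.0%) were identical. The interferon-stimulated core matched B2m alone (1 of 8, against 3.05% of all promoters). Only the exact pattern was searched, so variant forms of the element would be missed. The lack of a match does not show that a promoter lacks such an element.

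The core letters of AHR-ARNT binding, GCGTG, matched 5 of the 8 promoters (H2-D1, Tap1, Psmb8, Psmb9 and Psmb10), against 28.3% of all promoters. CCAAT, the letters of the NF-Y site, matched 6 of the 8, against 34.5% of all. Tap1 and Psmb9 point away from each other, and their RefSeq starts are parted by 225 bases (chr17:34187331-34187555), so their GCGTG and CCAAT matches are the same letters read from either side. GENCODE starts Psmb9 farther upstream, so this stretch lies inside Psmb9 as GENCODE draws it, and there the genes overlap. No match overlapped a match of another motif. A match is a description of letters and not of binding, which was not measured here.

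The class I genes and the immunoproteasome genes were lower in CAAHR than in GFP libraries. Of the 10 genes, 7 fell (H2-K1, H2-D1, B2m, Tap2, Nlrc5, Psmb8 and Psmb9) and 0 rose by the edgeR quasi-likelihood test at an adjusted p under 0.05, where 4.57% of all tested genes fell, 3.04% rose and 7.6% changed in either direction. All 10 log2 fold changes were below 0, against 48.8% of all tested genes. Their median log2 fold change was -1.07, against 0.01 over all tested genes. In 9 of the 10 genes every CAAHR library lay below every GFP library, a separation seen in 14.9% of all tested genes, and Psmb10 was the exception. The fall exceeded 2-fold in 4 of the called genes (B2m, Nlrc5, Psmb8 and Psmb9), against 2.51% of tested genes.

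The libraries of a group did not sit at equal levels. GFP replicate 43 was the highest of the 6 libraries for 9 of the 10 genes, with Tapbp as the exception, while it was highest for 15.6% of all tested genes. It was the highest GFP library for all 7 genes that fell, against 46.1% of all genes that fell. Summed over the 10 genes, the level was 199.5, 201.1 and 239.7 CPM in CAAHR replicates 31, 34 and 36, and 338.6, 528.1 and 343.8 CPM in GFP replicates 42, 43 and 46. The sums of the groups did not overlap. Within the GFP group replicate 43 exceeded the mean of the other 2 libraries by 2.60-fold for Tap1, 2.13-fold for Nlrc5, 1.87-fold for Psmb9 and 1.73-fold for B2m, and by 1.04-fold for Tapbp. With GFP replicate 43 left out, 6 of the 10 genes were called lower, against 2.75% of the 16389 genes tested in that fit.

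**Figure D1:**
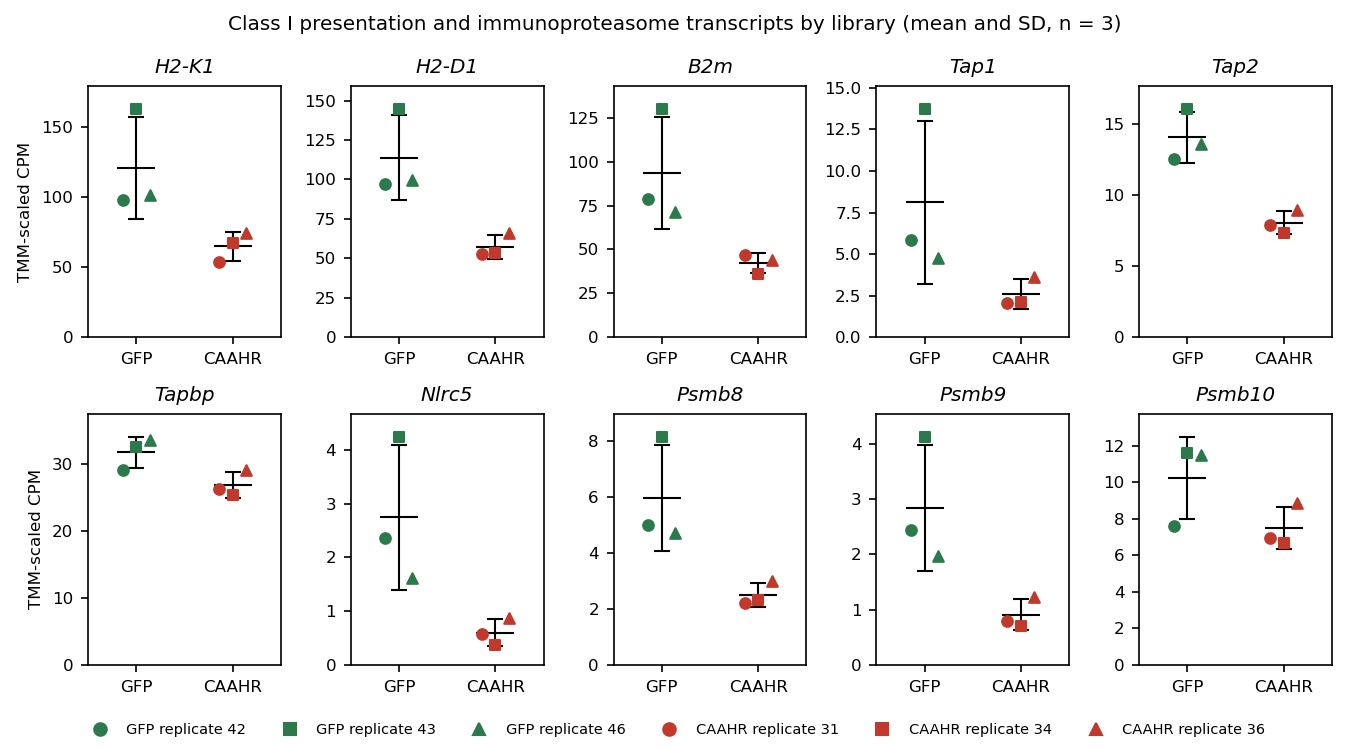
TMM-scaled CPM of the 10 genes in each of the 6 libraries, with 1 point per library, the groups CAAHR and GFP side by side and bars for the group mean and SD (n = 3). The linear axes start at 0. The CAAHR points lie below the GFP points in 9 of 10 genes, and GFP replicate 43 is the highest point in 9 of 10.

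The class I heavy chains and their light chain were the most abundant of the 10 genes in both groups. H2-K1 (ENSMUSG00000061232, GRCm38 chr17:33996017-34000347, - strand), a classical heavy chain, was at 53.3, 67.2 and 74.0 CPM in CAAHR replicates 31, 34 and 36, and at 98.0, 162.8 and 101.3 CPM in GFP replicates 42, 43 and 46. The groups did not overlap, and GFP replicate 43 stood above the other GFP libraries. H2-K1 was 1.86-fold lower in CAAHR, a log2 fold change of -0.90 ± 0.21 (SE, edgeR, Benjamini-Hochberg adjusted p = 0.0459). That call was lost when any CAAHR library or GFP replicate 46 was left out, in 4 of 6 such fits.

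H2-D1 (ENSMUSG00000073411, chr17:35262730-35267499, + strand), the other classical heavy chain of this strain, was at 52.9, 53.1 and 66.0 CPM in CAAHR and at 96.8, 145 and 99.6 CPM in GFP libraries, in the same order of replicates. The lowest GFP library lay well above the highest CAAHR library. H2-D1 fell by 0.99 ± 0.17 on the log2 scale (SE, edgeR, adjusted p = 0.0107), a 1.98-fold lower level, and the call held in all 6 fits that left out a library. The 2 heavy chains moved side by side, since the log2 ratio of H2-K1 to H2-D1 counts was 0.17 ± 0.16 in CAAHR and 0.07 ± 0.09 in GFP (SD, n = 3 each, two-sided exact permutation p = 0.7, where the smallest possible p is 0.1). Of the 150-base windows of H2-D1 exons, 1.79% also occurred in another gene, H2-Q1, and none of those of H2-K1 did, so reads shared with close relatives were few under unique counting.

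B2m (ENSMUSG00000060802, chr2:122147686-122153083, + strand) codes for beta-2-microglobulin, the light chain of every class I molecule. It was at 46.6, 35.9 and 44.2 CPM in CAAHR and at 78.9, 130.1 and 71.2 CPM in GFP libraries. All CAAHR libraries were below all GFP libraries, and B2m was the only gene of the 10 with its highest CAAHR value in replicate 31. The log2 fold change was -1.14 ± 0.23 (SE, edgeR, adjusted p = 0.0275), 2.21-fold lower in CAAHR, and the call was lost in the 3 fits that left out a CAAHR library.

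The peptide loading genes differed among themselves. Tap1 and Tap2 code for the subunits of the peptide transporter, and Tapbp codes for tapasin, which bridges the transporter to empty class I molecules. Tap1 (ENSMUSG00000037321, chr17:34187553-34197225, + strand) was at 2.04, 2.10 and 3.61 CPM in CAAHR and at 5.84, 13.7 and 4.74 CPM in GFP libraries. The groups did not overlap, but GFP replicate 43 was far above its group. Tap1 had a log2 fold change of -1.64 ± 0.46 (SE, edgeR, adjusted p = 0.0877) and was not called, while DESeq2 gave an adjusted p of 0.000131. DESeq2 called 8 of the 10 genes lower, Tap1 added, against 7.04% of the genes it tested. Its ratio of the mean of the other 2 GFP libraries to the mean of CAAHR was 2.05.

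Tap2 (ENSMUSG00000024339, chr17:34203527-34216321, + strand) had narrow groups, at 7.91, 7.33 and 8.90 CPM in CAAHR and 12.5, 16.0 and 13.6 CPM in GFP libraries. Every GFP library exceeded every CAAHR library. Its log2 fold change was -0.80 ± 0.13 (SE, edgeR, adjusted p = 0.00722), the smallest adjusted p of the 10 genes, and the call held in all 6 fits that left out a library. Tapbp (ENSMUSG00000024308, chr17:33915899-33929292, + strand) was at 26.2, 25.4 and 29.06 CPM in CAAHR and at 29.08, 32.5 and 33.6 CPM in GFP libraries. CAAHR replicate 36 and GFP replicate 42 all but met, the log2 fold change was -0.24 ± 0.10 (SE, edgeR, adjusted p = 0.176), and Tapbp was not called. Overlapping transcripts limit the count of Tapbp, since 149 exon bases are shared with Zbtb22 on the same strand. Other shared bases lie on opposite strands, which cannot be told apart without strand. The largest are 904 of Tapbp with Gm19412, 533 of Tap2 with Gm15821, 498 of Psmb8 with Gm20496 and 212 between Tap1 and Psmb9. Psmb7, a constitutive subunit used below, shares 405 with Nek6. Levels per exon base carry this limit.

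Nlrc5 (ENSMUSG00000074151, chr8:94434356-94527272, + strand) codes for the transactivator that drives class I genes, as CIITA does for class II. It had the largest fall of the 10 genes, on few reads, with 29, 21 and 53 counts in CAAHR and 114, 177 and 86 counts in GFP libraries. In CPM these were 0.573, 0.367 and 0.869 against 2.36, 4.25 and 1.62. No CAAHR library reached the lowest GFP library. The log2 fold change was -2.17 ± 0.42 (SE, edgeR, adjusted p = 0.0192), a 4.50-fold lower level, and the call was lost in the fit without CAAHR replicate 31. Without GFP replicate 43 the ratio of group means was 3.30.

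The immunoproteasome has 3 inducible catalytic subunits, each of which replaces a constitutive subunit. Psmb8 (ENSMUSG00000024338, chr17:34197721-34201454, + strand), which codes for the subunit that replaces Psmb5, was at 2.19, 2.31 and 3.001 CPM in CAAHR and at 4.99, 8.14 and 4.72 CPM in GFP libraries. The groups did not overlap. Psmb8 was 2.37-fold lower, with a log2 fold change of -1.24 ± 0.24 (SE, edgeR, adjusted p = 0.0144), and the call was lost in the fit without CAAHR replicate 31.

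Psmb9 (ENSMUSG00000096727, chr17:34181987-34187764, - strand), the replacement for Psmb6, was at 0.791, 0.700 and 1.23 CPM in CAAHR and at 2.44, 4.13 and 1.96 CPM in GFP libraries. These groups did not overlap either, on 40 to 75 counts in CAAHR and 104 to 172 in GFP. Psmb9 was 3.11-fold lower, with a log2 fold change of -1.64 ± 0.33 (SE, edgeR, adjusted p = 0.0193), and the call was lost without CAAHR replicate 31 and without GFP replicate 43. Psmb10 (ENSMUSG00000031897, chr8:105935735-105938444, - strand), the replacement for Psmb7, was at 6.96, 6.70 and 8.84 CPM in CAAHR and at 7.62, 11.6 and 11.5 CPM in GFP libraries. GFP replicate 42 fell below CAAHR replicate 36, so the groups overlapped, and the log2 fold change of -0.45 ± 0.18 did not pass the test (SE, edgeR, adjusted p = 0.175).

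**Figure D2:**
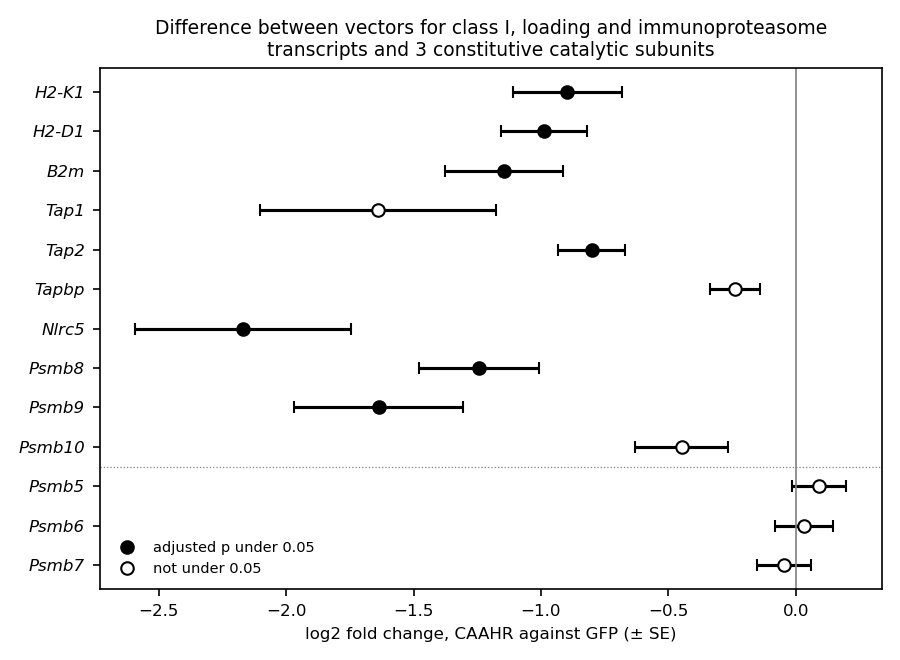
Log2 fold change of CAAHR over GFP for the 10 genes with standard errors, with filled points for genes called at an adjusted p under 0.05 and the constitutive subunits Psmb5, Psmb6 and Psmb7 for comparison. The 10 points run from -2.17 for Nlrc5 to -0.24 for Tapbp, and the constitutive subunits lie between -0.05 and 0.09.

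The constitutive catalytic subunits did not pass the test, with log2 fold changes of 0.09 ± 0.11 for Psmb5, 0.03 ± 0.11 for Psmb6 and -0.05 ± 0.11 for Psmb7 (SE, edgeR, adjusted p of 0.668, 0.902 and 0.842). The ratio of each inducible subunit to its constitutive partner was then taken within a library, per kilobase of exon. Exon length is the union of all annotated exons, 3381 bases for Psmb8 and 899 for Psmb5. The longest coding transcript of Psmb8 has 1628 bases. The percentages depend on this choice of length, while the difference in log2 ratio between the groups does not. Psmb8 was at 0.811%, 0.699% and 0.925% of Psmb5 in CAAHR replicates 31, 34 and 36, and at 1.79%, 2.94% and 1.503% in GFP replicates 42, 43 and 46. The GFP shares were all higher, and the log2 ratio of counts (pseudocount 0.5) differed by -1.30 between the groups, from -3.74 ± 0.50 in GFP to -5.04 ± 0.20 in CAAHR (SD, n = 3 each).

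Psmb9 was at 0.474%, 0.336% and 0.579% of Psmb6 in CAAHR and at 1.30%, 2.23% and 0.956% in GFP libraries, again without overlap and with a difference of -1.64 in the log2 ratio. Psmb10 was at 8.35%, 6.52% and 9.24% of Psmb7 in CAAHR and at 8.11%, 11.9% and 11.6% in GFP libraries, where the groups overlapped and the log2 ratio differed by -0.38. The two-sided exact permutation p was 0.1 for Psmb8 and for Psmb9, the smallest that 3 against 3 libraries allow, and 0.3 for Psmb10 (adjusted over the 3 ratios, 0.15, 0.15 and 0.3), so this design could not reach 0.05.

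**Figure D3:**
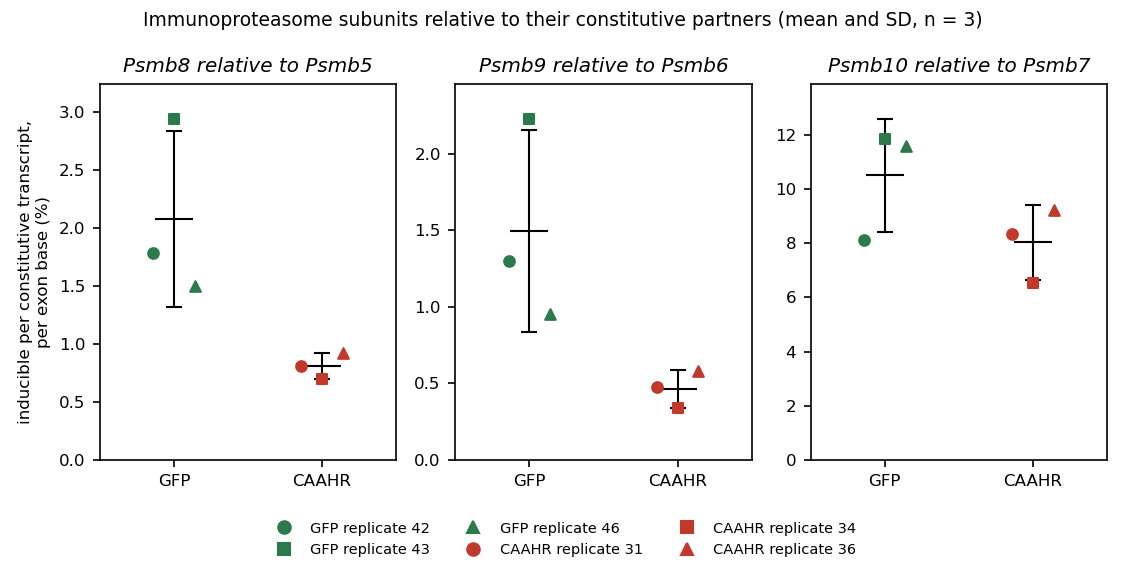
Exon-length-corrected level of Psmb8, Psmb9 and Psmb10 as a percentage of Psmb5, Psmb6 and Psmb7 on linear axes that start at 0, with 1 point per library and bars for the group mean and SD (n = 3). The GFP points lie above the CAAHR points for the first 2 ratios, with group means of 2.08% against 0.812% and 1.497% against 0.463%, and overlap for the third, with 10.5% against 8.04%.

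The levels of the genes were compared with each other only in RPKM, which is TMM-scaled CPM per kilobase of exon. The union of all annotated exons can be far longer than a transcript, so the order below depends on that choice of length. For H2-K1 the union has 2938 bases and the longest coding transcript 1619, and for H2-D1 they have 2579 and 2102. In GFP libraries B2m was the highest of the 10 genes, at 109 ± 37.2 RPKM (SD, n = 3), followed by H2-D1 at 44.1 ± 10.4 and H2-K1 at 41.1 ± 12.4. Tapbp came next at 8.74 ± 0.65, then Psmb10 at 6.004 ± 1.33 and Tap2 at 3.71 ± 0.48 RPKM. The lowest were Psmb8 at 1.76 ± 0.56, Tap1 at 1.48 ± 0.90, Psmb9 at 0.778 ± 0.311 and Nlrc5 at 0.323 ± 0.160 RPKM. Neighbours that overlapped between libraries, and so did not differ beyond their spread, were H2-D1 and H2-K1, Psmb8 and Tap1, and Tap1 and Psmb9. The order of the 10 genes was the same in CAAHR libraries, from B2m at 49.1 ± 6.49 to Nlrc5 at 0.0710 ± 0.0297 RPKM. H2-D1 and H2-K1 there were at 22.2 ± 2.91 and 22.1 ± 3.58 RPKM. The constitutive subunits Psmb5, Psmb6 and Psmb7 lay between 52.9 and 91.5 RPKM in either group, and B2m stood above all 3 in the GFP group mean and below all 3 in the CAAHR group mean. Its libraries overlapped those of Psmb5 in GFP and those of Psmb6 and Psmb7 in CAAHR.

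The wider pathway was taken from lists of 69 further genes, of which 61 were tested, 15 fell and 2 rose, where 4.57% of all tested genes fell and 3.04% rose. Of the 13 tested class I-like and non-classical heavy chains 6 fell, 0 rose and 7 did not pass, with a median log2 fold change of -1.08. Among those that did not pass, H2-T22, Hfe and H2-T24 were at -0.11, -0.07 and -0.15 with overlapping groups. Mr1, which presents vitamin B metabolites to mucosal-associated T cells, was at 16.6, 21.7 and 16.1 CPM in CAAHR and 35.04, 35.8 and 35.7 CPM in GFP libraries. The GFP libraries were nearly level and well above CAAHR, replicate 43 included, with a log2 fold change of -0.97 ± 0.12 (SE, edgeR, adjusted p = 0.00193). H2-T23, which codes for Qa-1 and presents leader peptides to NK receptors, fell by 1.20 ± 0.26 on the log2 scale (adjusted p = 0.0317, edgeR). H2-Q4, H2-Q6 and H2-Q10 had log2 fold changes of -1.46, -1.55 and -2.36, and H2-M3, which presents formylated peptides, of -1.08 (edgeR, adjusted p of 0.0139, 0.0238, 0.00998 and 0.0348). Of the 6 fits that left out a library, Mr1 and H2-Q10 were called in all 6, H2-Q4 in 5, H2-T23 in 3, H2-Q6 in 2 and H2-M3 in 1. Of the 150-base exon windows of H2-Q6, 5.99% also occurred in another gene, so its count is uncertain.

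The factors that trim and edit peptides did not move together. Of 8 such genes, 1 fell and 2 rose, where 4.57% of all tested genes fell and 3.04% rose, and the median log2 fold change was 0.11. Tapbpl, the tapasin-related editor, fell by 0.80 ± 0.19 on the log2 scale (SE, edgeR, adjusted p = 0.0355). The aminopeptidases Npepps and Lnpep were higher in CAAHR, with log2 fold changes of 0.45 ± 0.10 and 0.67 ± 0.17 (edgeR, adjusted p of 0.0273 and 0.0442), and neither passed with upper quartile scaling. Of the 6 fits that left out a library, Tapbpl and Lnpep were called in 1 each and Npepps in 2. None of the 6 proteasome activator and assembly genes passed. Pomp, the assembly chaperone, was at 0.29 ± 0.10, Psme3 at 0.16 ± 0.08 and Psme4 at 0.09 ± 0.11 on the log2 scale (SE, edgeR, adjusted p of 0.103, 0.284 and 0.694). Psme1, Psme2 and Psmf1 were below 0, at -0.22 ± 0.12, -0.20 ± 0.12 and -0.03 ± 0.11 (SE, edgeR, adjusted p of 0.319, 0.376 and 0.893).

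Of 22 tested genes of interferon signalling and class I regulation, 2 fell and 0 rose, where 4.57% of all tested genes fell and 3.04% rose. Their median log2 fold change was -0.20. Ifngr2, a chain of the interferon-gamma receptor, was at 42.02, 38.8 and 36.3 CPM in CAAHR and at 69.4, 62.7 and 65.1 CPM in GFP libraries. The groups lay far apart, and replicate 43 was the lowest GFP library, unlike in the class I genes. Ifngr2 had a log2 fold change of -0.75 ± 0.09 (SE, edgeR, adjusted p = 0.00181). Irf1, a transcription factor induced by interferon-gamma that acts on class I and immunoproteasome promoters, was at 3.46, 3.36 and 5.64 CPM in CAAHR and at 7.02, 11.8 and 10.3 CPM in GFP libraries, without overlap. Its log2 fold change was -1.22 ± 0.25 (SE, edgeR, adjusted p = 0.0251). Ifngr2 was called in all 6 fits that left out a library, and Irf1 in 3 of them, with the call lost without CAAHR replicate 31, GFP replicate 43 or GFP replicate 46. The kinases Jak1 and Jak2 did not pass, at -0.32 ± 0.11 and -0.27 ± 0.13 (SE, edgeR, adjusted p of 0.113 and 0.233). Interferon-gamma itself (Ifng) had 0 counts in every CAAHR library and 2, 6 and 1 counts in GFP replicates 42, 43 and 46, too few to be tested.

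The MHC class II genes, which professional antigen-presenting cells express, also fell, in 6 of 9 tested genes, against 4.57% of all tested genes. Their median log2 fold change was -2.28. Cd74, the invariant chain, was at 13.4, 12.3 and 14.3 CPM in CAAHR and at 37.9, 104.5 and 52.5 CPM in GFP libraries, with GFP replicate 43 the highest. Its log2 fold change was -2.28 ± 0.40 (SE, edgeR, adjusted p = 0.0303). H2-Ab1, H2-DMa, H2-DMb1 and H2-Ob had log2 fold changes of -2.51, -1.90, -1.98 and -2.53, and Ciita, the class II transactivator, of -2.07 (edgeR, adjusted p of 0.0316, 0.0276, 0.018, 0.0118 and 0.0268). Of the 6 fits that left out a library, H2-Ob was called in 5, H2-DMb1 in 4, Ciita in 3, and Cd74, H2-Ab1 and H2-DMa in 2 each.

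Leukocyte markers were compared in the same libraries. Of 39 leukocyte marker genes 29 were tested, 13 fell, 0 rose and 16 did not pass, against 4.57% of all tested genes that fell. Their summed level was 69.7, 51.5 and 58.3 CPM in CAAHR replicates 31, 34 and 36, and 198, 586 and 366 CPM in GFP replicates 42, 43 and 46. Ighm, the heavy chain of IgM, made up 60.8% to 68.9% of the sum in GFP libraries and 13.4% to 30.2% in CAAHR libraries. Without Ighm the sums were 52.0, 35.9 and 50.4 CPM in CAAHR and 77.7, 193.9 and 113.9 CPM in GFP libraries, still without overlap. Replicate 43 was the highest library for the sum with and without Ighm, whereas replicate 46 was the highest for the neutrophil markers, at 15.4 CPM against 8.98 CPM in replicate 43. Ptprc (CD45), carried by all leukocytes, was at 0.949, 1.05 and 1.12 CPM in CAAHR and at 2.36, 9.17 and 4.19 CPM in GFP libraries, and 7 of the 39 genes were at or under the floor of 3 counts in every CAAHR library. By cell type, 4 of 4 markers of all leukocytes fell, 4 of 7 of B and plasma cells, 3 of 4 tested of neutrophils, 1 of 4 tested of dendritic cells, 1 of 3 tested of T and NK cells and 0 of 7 tested of macrophages. All 29 tested leukocyte markers had log2 fold changes below 0, against 48.8% of all tested genes. A gene with few CAAHR counts can pass the filter through its GFP libraries alone, and a negative value is then nearly fixed. Cd8b1, the T and NK marker that fell, had 2, 3 and 1 counts in CAAHR and 11, 17 and 14 counts in GFP libraries. The 7 tested macrophage markers had a median log2 fold change of -1.14. The summed level of the macrophage list was 18.6 to 32.6 CPM in CAAHR and 41.1 to 89.8 CPM in GFP libraries. None of the 6 endothelial and 5 fibroblast markers passed, with summed levels of 161 to 226 against 158 to 202 CPM and of 280.3 to 516 against 402 to 495 CPM in CAAHR and GFP libraries. Gzmb and Prf1, granule proteins of cytotoxic lymphocytes, had 0 counts in every CAAHR library and few in GFP replicates 42, 43 and 46, at 3, 19 and 2 counts for Gzmb and 2, 6 and 3 for Prf1. Cd3e, of the same T and NK list, was at 1.15, 1.45 and 0.836 CPM in CAAHR and at 1.37, 2.28 and 0.962 CPM in GFP libraries. Its groups overlapped, and its log2 fold change of -0.42 ± 0.35 did not pass (SE, edgeR, adjusted p = 0.516). The part of leukocytes in the levels of the class I genes was not tested, and in whole muscle fewer cells of a type and less RNA per cell cannot be told apart.

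**Figure D4:**
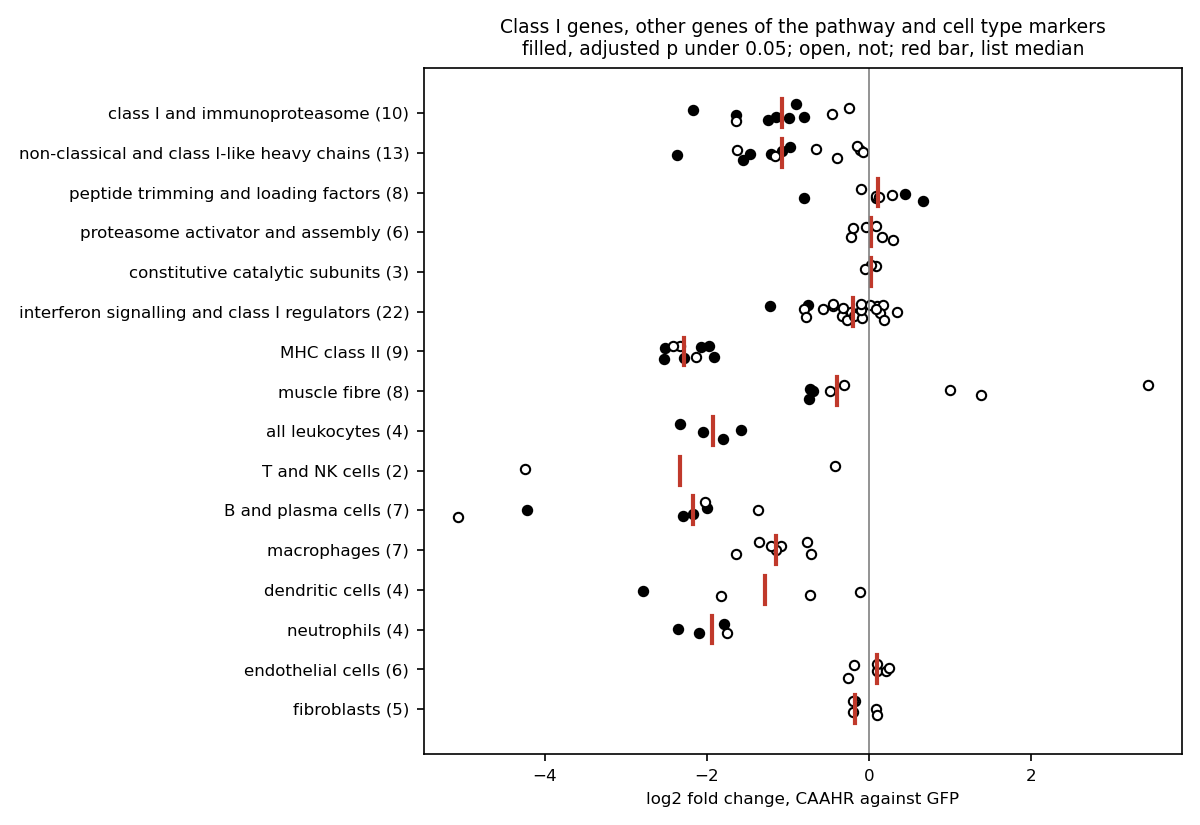
Log2 fold change of CAAHR over GFP for each tested gene of the pathway and marker lists, with 1 point per gene, the list median as a bar and genes at or under the floor left out. The class I-like and class II lists and the leukocyte lists lie below 0, while the trimming, activator, constitutive proteasome, endothelial and fibroblast lists have medians between -0.17 and 0.11.

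The shape of the 10 genes over the 6 libraries was summarised as the mean of their standardised log2 CPM. H2-D1 was closest to that mean (Pearson r = 0.997 over 6 libraries), and Tapbp and Psmb10 were farthest (0.899 and 0.856). Each of the 10 genes is itself part of the mean, which raises its r, so these values cannot be set against those of genes outside. Outside the 10 genes the 5 with the highest r were H2-T23 (0.998), Cxcl16 (0.995), Hsf1 (0.992), Sept1 (0.991) and Ciita (0.991), and 175 of 15837 other genes reached 0.95. H2-T23 and Ciita belong to the class I-like and class II lists. Cxcl16, a chemokine, had a log2 fold change of -1.84, and Hsf1, the heat shock transcription factor, one of -0.23 that did not pass (edgeR, adjusted p = 0.148). These values describe 6 points that form 2 groups, so a gene with any difference between the groups has a share of its r from that difference.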

How the data were processed

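RNA of gastrocnemius from 6 virus-injected muscles was measured, 3 per group. The deposited table holds counts, as whole numbers, for each gene. According to the methods of the authors, poly(A)-selected, paired-end reads were trimmed (Trimmomatic 0.36), aligned to GRCm38 (STAR 2.5.2b) and uniquely assigned exon reads were summed by featureCounts. Whether the libraries were stranded is not given in the sources used here. The deposited counts are not scaled.

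Libraries were grouped by their titles. Counts were filtered with filterByExpr, scaled by TMM and tested with the robust quasi-likelihood test of edgeR 4.0.16 in R 4.3.3, CAAHR against GFP, with Benjamini-Hochberg adjustment over 15847 genes. The authors used DESeq2, which served here as an alternative (version 1.42.0), together with other scalings, filters, limma voom (version 3.58.1), a fit without robust estimation, another pseudocount and leaving out each library. Standard errors were derived from the F statistic. RPKM used union exon lengths of GENCODE M21 (GRCm38), which held 48970 of the 49315 identifiers. Rows without a symbol (174, with 0.0154% of counts) were kept. The SE and SD values include the spread between libraries, while the floor of 3 counts covers counting error only. The scripts were tested on simulated data. Within groups, no pair of libraries was a repeat: the chi-square of their counts, divided by its degrees of freedom, was 21.6 or more.

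The genes and lists were chosen with earlier results of these data known. Named were the 10 genes, their 3 constitutive partners, in each other list the genes at an adjusted p under 0.05 (at most the 6 with the highest mean CPM, or the 3 with the highest where fewer than 3 passed), and the 5 genes most like the mean profile. Of the marker lists only a few such genes are printed, and some genes outside this rule are also named.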

Additional observations from a re-analysis of the deposited data

How the results depend on the processing

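All 10 log2 fold changes stayed below 0 in all 14 alternatives. The 8 alternatives that kept all libraries called 7 or 8 of the 10 genes lower, against 3.79% to 7.04% of all genes tested in those fits. With no filter on low counts Psmb10 passed as well (-0.43, adjusted p = 0.0390, edgeR), and 2470 genes were called among all genes in place of 1205. DESeq2 called 1919 genes and Tap1 (-1.66), and edgeR without robust estimation also called Tap1 (-1.64, adjusted p = 0.0431). The cause was not tested. Calls over all genes were lower in CAAHR in 60.1% of cases with TMM, 73.4% with upper quartile scaling and 40.7% with library size only, which moved the median of all genes to -0.06 and 0.09 on the log2 scale.

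Leaving out 1 library at a time left 2 to 7 of the 10 genes called, 530 to 1727 of all genes and 4 to 15 pathway genes called lower. The 10 genes were fewest without CAAHR replicate 31 (H2-D1 and Tap2 only), 5 without CAAHR replicate 34 or 36, and 6 without GFP replicate 43 or 46. Among all tested genes, those called lower were 2.34%, 5.51% and 2.01% without CAAHR replicates 31, 34 and 36. They were 3.38%, 2.75% and 2.31% without GFP replicates 42, 43 and 46. H2-D1 and Tap2 were called in all 6 fits. The log2 fold changes then ran from -1.02 to -0.62 for H2-K1, -1.31 to -0.83 for B2m, -2.54 to -1.71 for Nlrc5, -1.40 to -0.95 for Psmb8, -1.93 to -1.27 for Psmb9, -1.97 to -1.03 for Tap1, -1.11 to -0.78 for H2-D1, -0.89 to -0.70 for Tap2, -0.31 to -0.20 for Tapbp and -0.62 to -0.35 for Psmb10. The log2 ratio differences ran from -1.51 to -1.02 for Psmb8 to Psmb5, -1.92 to -1.30 for Psmb9 to Psmb6, -0.56 to -0.24 for Psmb10 to Psmb7 and 0.0168 to 0.181 for H2-K1 to H2-D1.

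No paired analysis was possible because CAAHR and GFP libraries share no replicate numbers. Of the 10 genes Tap1 had the largest standard error (0.46 on the log2 scale), followed by Nlrc5 (0.42) and Psmb9 (0.33). With 3 libraries per group an exact permutation test of a single value cannot go below 0.1.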
